A study of Homo sapiens with 18 samples.

Results

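The genes described here are 10 components of the protein-folding machinery of the endoplasmic reticulum (ER): the chaperones HSPA5 and HSP90B1, the disulfide isomerases PDIA3, PDIA4 and PDIA6, the lectin chaperones CALR and CANX, the co-chaperone DNAJB9, the degradation factor HERPUD1 and the transcription factor XBP1. They were selected by gene symbol, and all 10 were found among the 15358 genes of the MCF10A table and among the 15257 genes of the hTERT RPE-1 (RPE-1) table. RNAseq of polyadenylated RNA was conducted on 18 libraries from these human cell lines, both described as near-normal: MCF10A, from breast epithelium, and hTERT RPE-1, telomerase-immortalized cells from retinal pigment epithelium. Cells of each line received 30 nM of a non-targeting siRNA (siNT), of a mimic of hsa-miR-28-5p (miR-28) or of hsa-miR-708-5p (miR-708), all from Dharmacon/Horizon, and RNA was harvested after 72 h. The small RNA dose is shared by all groups, siNT included. Each of the 6 groups had 3 biological replicates, numbered 7, 8 and 9 in MCF10A and 1, 2 and 3 in RPE-1. The study compared the mimics with siNT to see how the transcriptome changes after mimic treatment, and the same comparisons are made here for the ER genes.

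Proteins that enter the ER are folded with the help of HSPA5 (BiP), HSP90B1 (GRP94), the calnexin and calreticulin lectins, and enzymes that form and rearrange disulfide bonds. When unfolded proteins accumulate, the sensors IRE1, ATF6 and PERK start the unfolded protein response: IRE1 splices the XBP1 mRNA so that it encodes an active transcription factor, ATF6 is cleaved to release another, and PERK phosphorylates a translation initiation factor. The transcription factors act through ER stress elements in the promoters of chaperone genes, which makes the mRNA levels of these genes a common readout of the response.

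The mimics copy microRNAs of the MIR-28 family. Their mature sequences are shown because the seed, bases 2 to 8, sets which sites they pair with. Seed bases are in capitals.
hsa-miR-28-5p: aAGGAGCUcacagucuauugag
hsa-miR-708-5p: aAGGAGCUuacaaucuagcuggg
The first 8 bases are identical, and 16 of the 22 positions compared carry the same base. The reverse complement of the seed was searched in the annotated 3′ UTR of 1 transcript per gene. A heptamer match, here to bases 2 to 7 followed by an A, was found in CANX at chr5:179731396-179731417, and a hexamer match to bases 2 to 7 was found in CALR at chr19:12943935-12943956 (hg38, plus strand). The matched bases are in capitals in these stretches.
CANX: tacacagaatgtagtGCTCCTA
CALR: gactgaggcctgagcGCTCCTg
The other 8 members had neither match in the annotated 3′ UTR. Among all tested genes with an annotated 3′ UTR, 64.4% of 12931 in MCF10A and 64.2% of 12735 in RPE-1 had no match, beside these 8 of 10. Genes with a heptamer had median log2 fold changes against siNT of -0.09 (miR-28) and -0.14 (miR-708) in MCF10A. In RPE-1 these medians were -0.16 and -0.27. Genes with no match had medians of -0.006 and 0.005 in MCF10A and 0.06 and 0.09 in RPE-1.

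A second sequence feature is the ER stress element (ERSE), searched on both strands as CCAAT, 9 bases of any kind and CCACG in the 300 bases around each start site (250 before, 50 after) of RefSeq promoters on GRCh38.p14. The element is known from promoters of chaperone genes, so its presence in members is not independent of their choice. It was present in 6 of the 9 members with a promoter in the table, HSPA5, HSP90B1, PDIA6, CALR, CANX and XBP1, and in 25 of all 27305 genes in the table (0.0916%). A gene can have several windows, and by window the match was in 8 of 15 for the members and in 27 of 35116 overall (0.0769%). The matches are shown in the direction of the motif, with the fixed bases in capitals.
HSPA5: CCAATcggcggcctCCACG
HSP90B1, upstream match: CCAATcggaaggagCCACG
HSP90B1, downstream match: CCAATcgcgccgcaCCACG
PDIA6: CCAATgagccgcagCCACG
CALR: CCAATgatggtcgaCCACG
CANX: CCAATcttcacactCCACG
XBP1: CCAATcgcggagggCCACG
HERPUD1, second element type: ATTGGgCCACG
The ERSE matches lie at chr9:125241391-125241409 (HSPA5), chr12:103930216-103930234 and chr12:103930321-103930339 (HSP90B1), chr2:10812853-10812871 (PDIA6), chr19:12938384-12938402 (CALR), chr5:179698778-179698796 (CANX) and chr22:28800603-28800621 (XBP1). HERPUD1 had no ERSE but held the related ERSE-II, searched as ATTGG, 1 base of any kind and CCACG, at chr16:56932025-56932035, a motif present in 0.0541% of all windows. DNAJB9 and PDIA4 had neither motif in these windows, and PDIA3 was not in the table. Of the other ER chaperones and co-chaperones examined below, 1 of the 12 in the table had an ERSE and 2 had an ERSE-II, beside 1 of the 9 members with ERSE-II. The motif TGACGTGG, which XBP1 is known to bind, was in 0 of the 15 member windows and in 0.729% of all windows. By gene it was in 2 of those 12 other chaperones, 2 of 14 oxidoreductases and 2 of 16 degradation genes. It was also in 3 of 15 translocon genes and 3 of 11 COPII genes, and in 0 genes of the other groups examined below. These matches are descriptions of letters in a window and were not tested as sites in these cells.

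**Figure D1:**
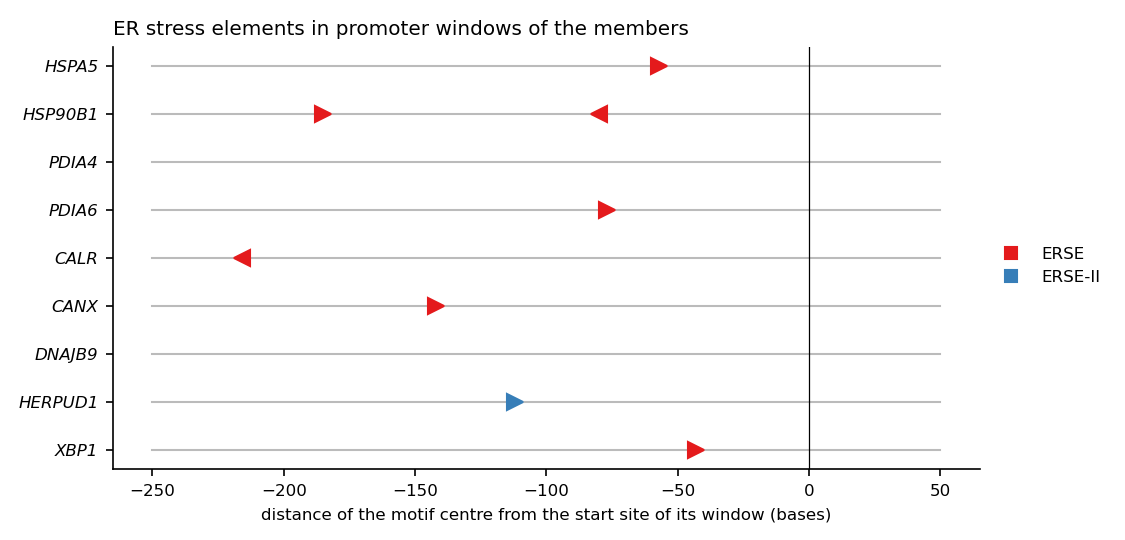
Positions of ER stress elements in the promoter windows of the 9 members in the table, as distance in bases from the start site (vertical line) of the first listed window that holds the match. Grey lines span the window of 250 bases before to 50 after the start, and arrowheads give the direction of each motif. ERSE matches (red) appear in 6 genes and ERSE-II (blue) in HERPUD1, all upstream of the start site of the window drawn; the CANX match also lies in other, overlapping windows of that gene.

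The libraries held 19.4–31.7 M reads on genes in MCF10A (median 26.6) and 23.8–40.3 M in RPE-1 (median 34.1). RPS28, the ribosomal protein mRNA followed in the study, was at 14.6% of the siNT mean with miR-28 and 16.1% with miR-708 in MCF10A, and at 4.55% and 4.76% in RPE-1, with all mimic libraries below all siNT libraries. All 8 basal mammary markers had a mean above 1000 in siNT-treated MCF10A. In RPE-1 only 6 of 8 retinal pigment epithelium markers were listed. MITF had a mean of 1908 and OTX2 of 951, whereas RPE65 and TYR were not listed and RLBP1 was at 2.42. The mesenchymal gene VIM had a mean of 141182 there. The leukocyte marker that was listed, of 4, had a mean of at most 7.01 in siNT libraries. The summed markers of the line moved with treatment: the 8 basal markers summed to 174811–186411 with siNT, 115836–129045 with miR-28 and 93169–113505 with miR-708 in MCF10A, and the 6 listed pigment epithelium markers to 2943–3784, 1941–2075 and 2108–2276 in RPE-1. Markers of other types moved in part. The mesenchymal sum in RPE-1 was 1238730–1969460 with siNT, 1433290–1841990 with miR-28, within the siNT range, and 927342–1070190 with miR-708. FN1 held 1341380 of its siNT mean of 1547140, while the mean of COL1A1 was 41392 with siNT, 9572 with miR-28 and 2938 with miR-708. The pigment epithelium sum in MCF10A was 869–1191, 1449–1734 and 1157–1543. The part of these marker changes in the results below was not tested. A single library stood apart in its share of ribosomal RNA. The miR-28 replicate 1 library of RPE-1 had 16.7% of its summed values in ribosomal RNA genes, against 4.84–7.88% in the other RPE-1 libraries. Its part in the results was not tested. Values without it are given for several members and for none of the other genes below.

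The values given below are those deposited, estimated reads per gene scaled by a size factor of the library. Differences were computed on log2(value + 1) with limma over the 9 libraries of a line, adjusted p is the Benjamini-Hochberg value over the 14726 genes tested in MCF10A or the 14527 in RPE-1, and a gene with an adjusted p below 0.05 is called. Statistics given in pairs are in the order miR-28 and miR-708.

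In siNT-treated cells the members spanned a wide range of levels. Per kilobase of the canonical transcript, the mean values in MCF10A ran from HSP90B1 (13200) through CANX (10952), CALR (7538), HSPA5 (5702), PDIA3 (3766), PDIA6 (3403) and PDIA4 (2301) to XBP1 (1624), HERPUD1 (463) and DNAJB9 (254). In that order only PDIA3 and PDIA6 had libraries that overlapped. In RPE-1 the order was CALR (31280), HSP90B1 (28206), HSPA5 (14025), PDIA6 (9179), CANX (8840), PDIA3 (8489), PDIA4 (4205), XBP1 (2079), HERPUD1 (780) and DNAJB9 (440), again per kilobase. There, CALR overlapped with HSP90B1, and PDIA6, CANX and PDIA3 overlapped with each other. The tables were scaled separately, so levels are not compared between the lines. The transcription factor XBP1 and the accessory factors HERPUD1 and DNAJB9 were the lowest in both lines. The lowest value of any member in a library, 553 for DNAJB9, was far above the value of 3 reads (at most 4.02 in MCF10A).

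**Figure D2:**
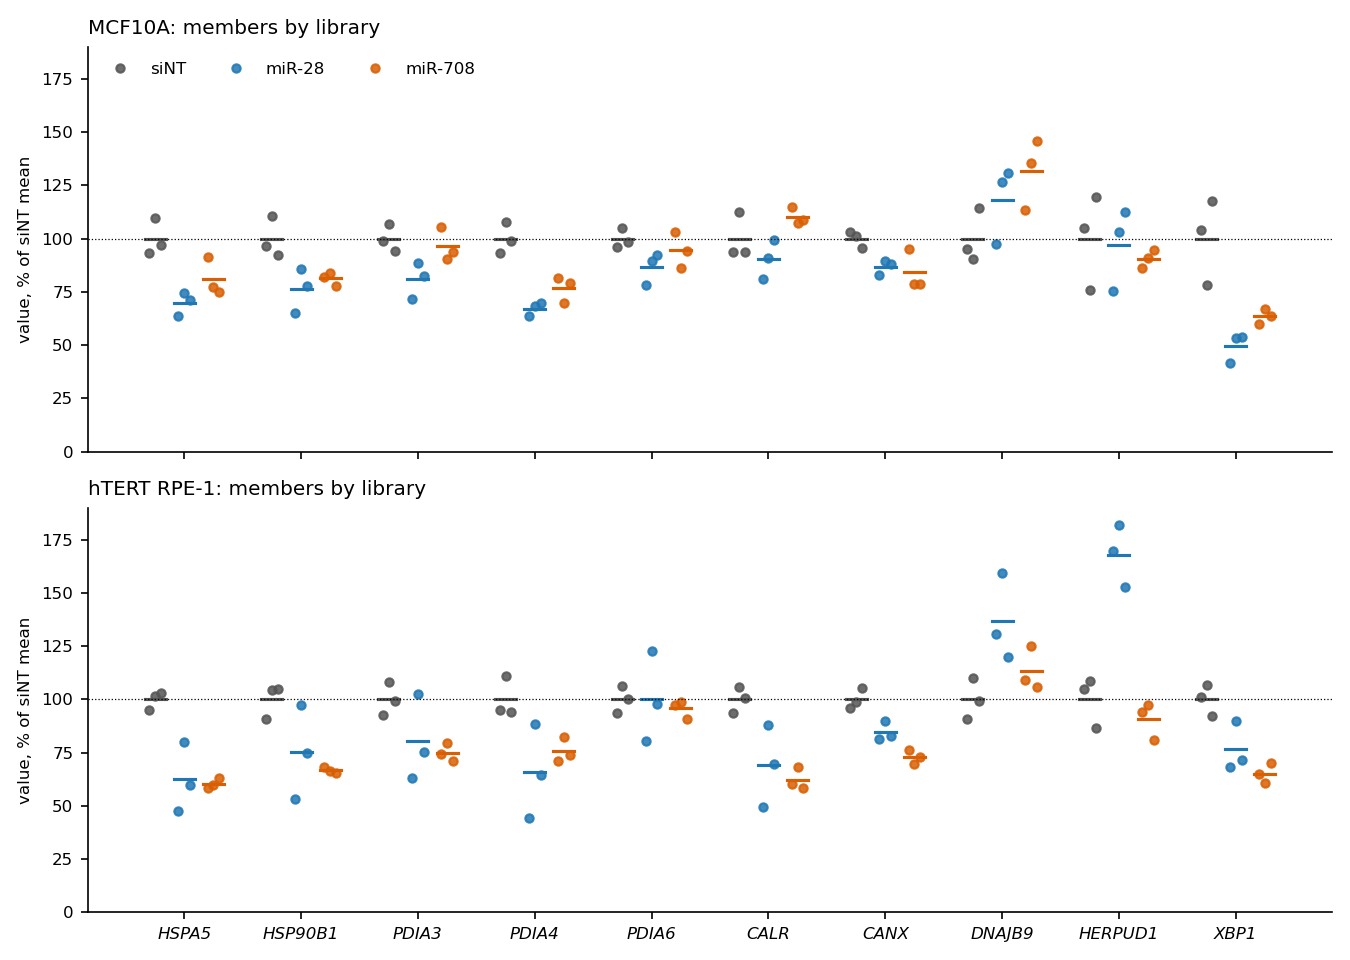
Value of each member in each library as a percentage of the mean of its 3 siNT libraries (dotted line at 100%), in MCF10A (top) and RPE-1 (bottom). Points are libraries in the order of replicate number and short lines are group means. XBP1 lies below siNT with either mimic in either line, and HERPUD1 lies at 168% of siNT only in the RPE-1 libraries with miR-28.

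HSPA5 (chr9:125234853-125241343, minus strand, hg38), the ATP-dependent Hsp70 of the ER lumen, was lower after either mimic in RPE-1 and after miR-28 in MCF10A. In MCF10A its values in replicates 7, 8 and 9 were 20836, 24488 and 21747 with siNT, 14252, 16695 and 15899 with miR-28, and 20411, 17252 and 16743 with miR-708. No mimic library reached the siNT range there, but miR-708 replicate 7 came close to the lowest of them. HSPA5 fell by 0.52 on the log2 scale with miR-28 (SE 0.12, limma adjusted p = 0.0120), to 69.8% of siNT. With miR-708 its log2 fold change was -0.30 (SE 0.12, limma adjusted p = 0.0749), which did not pass the threshold of 0.05. In RPE-1 the values in replicates 1, 2 and 3 were 52259, 55962 and 56760 with siNT, 26281, 43930 and 32898 with miR-28, and 32045, 32952 and 34598 with miR-708. No mimic library reached the siNT range, although the libraries with miR-28 were spread widely. HSPA5 fell by 0.71 with miR-28 (SE 0.17, limma adjusted p = 0.00544) and by 0.73 with miR-708 (SE 0.17, limma adjusted p = 0.00302), to 62.5% and 60.4% of siNT. Without miR-28 replicate 1 the first value was -0.53 (limma adjusted p = 0.00968). In MCF10A the call was lost without siNT replicate 8 (limma adjusted p = 0.0504; 0.00724–0.0504 over its 14 alternatives). These are bulk samples, in which less RNA per cell and fewer cells of a type cannot be told apart.

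HSP90B1 (chr12:103930410-103947926, plus strand), the ER paralog of Hsp90 that folds integrins and Toll-like receptors, passed the threshold in 1 comparison. The MCF10A values of HSP90B1 were 35518, 40652 and 33994 with siNT, 23952, 31485 and 28621 with miR-28, and 30165, 30891 and 28645 with miR-708. All 6 mimic libraries were below the siNT libraries. The log2 fold changes were -0.40 (SE 0.14, limma adjusted p = 0.0574) with miR-28 and -0.29 (SE 0.14, limma adjusted p = 0.120) with miR-708. The replicate numbers pair these MCF10A libraries, and with the replicate number as a block the first passed the threshold (limma adjusted p = 0.0325; 0.0325–0.181 over its 14 alternatives). Replicates 1, 2 and 3 of RPE-1 had HSP90B1 values of 71336, 81866 and 82202 with siNT, 41856, 76294 and 58626 with miR-28, and 53526, 51985 and 51364 with miR-708. The miR-28 replicate 2 library lay within the siNT range, whereas the miR-708 libraries lay close together below it. HSP90B1 fell by 0.58 with miR-708 (SE 0.19, limma adjusted p = 0.0227), while the value with miR-28 was -0.45 (SE 0.19, limma adjusted p = 0.0776). The miR-28 value passed without replicate 2 of that group (-0.66, limma adjusted p = 0.00841; 0.00841–0.241 over its 14 alternatives), and without replicate 1 it was -0.23 (limma adjusted p = 0.241), over 1.5 times smaller. The miR-708 call was lost without miR-708 replicate 2 or 3 or siNT replicate 2 or 3 (limma adjusted p 0.0532–0.0646; 0.00134–0.291 over its 14 alternatives). HSPA5, HSP90B1 and PDIA3 have processed pseudogenes, and how reads shared with those copies were divided cannot be seen in the deposited values.

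PDIA4 (ERp72, chr7:149003062-149028505, minus strand), a disulfide isomerase found in ER chaperone complexes with HSPA5, was called lower in 3 of the 4 comparisons with siNT. Replicates 7, 8 and 9 of MCF10A had PDIA4 values of 5929, 6862 and 6310 with siNT, 4048, 4346 and 4446 with miR-28, and 5207, 4447 and 5042 with miR-708. No mimic library reached the siNT range. PDIA4 fell by 0.57 with miR-28 (SE 0.10, limma adjusted p = 0.00269) and by 0.38 with miR-708 (SE 0.10, limma adjusted p = 0.0120). The second call was lost without miR-708 replicate 8 (limma adjusted p = 0.0556; 0.00823–0.0708 over its 14 alternatives). For PDIA4 in RPE-1 the values were 11047, 12895 and 10962 with siNT, 5164, 10291 and 7494 with miR-28, and 8295, 9577 and 8614 with miR-708. Again no mimic library reached the siNT range, and the miR-28 libraries differed 1.99-fold among themselves. PDIA4 fell by 0.66 with miR-28 (SE 0.20, limma adjusted p = 0.0201), a call that was lost without siNT replicate 2 (limma adjusted p = 0.0718; 0.000966–0.0718 over its 14 alternatives). Without miR-28 replicate 1 the change was -0.40 (limma adjusted p = 0.0353), a decrease over 1.5 times smaller. With miR-708 the value was -0.40 (SE 0.20, limma adjusted p = 0.106).

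PDIA3 (ERp57, chr15:43746438-43773278, plus strand) works with the lectin chaperones on glycoproteins. Its MCF10A values were 13729, 14810 and 13039 with siNT, 9957, 12247 and 11456 with miR-28, and 14597, 12524 and 13024 with miR-708. The miR-28 libraries were all below siNT, and the miR-708 libraries overlapped with it. The log2 fold changes were -0.31 (SE 0.11, limma adjusted p = 0.0704) and -0.05 (SE 0.11, limma adjusted p = 0.759). The RPE-1 values of PDIA3 were 29005, 33726 and 30986 with siNT, 19679, 32038 and 23558 with miR-28, and 23162, 24849 and 22192 with miR-708. Only the miR-708 group was separated from siNT. PDIA3 fell by 0.42 with miR-708 (SE 0.16, limma adjusted p = 0.0425), a call that was lost when any of the 6 libraries compared was left out (limma adjusted p 0.0586–0.127; 0.00433–0.647 over its 14 alternatives). With miR-28 its value was -0.34 (SE 0.16, limma adjusted p = 0.102), and -0.53 without replicate 2 of that group (limma adjusted p = 0.00568; 0.00568–0.316 over its 14 alternatives). Without replicate 1 it was -0.18 (limma adjusted p = 0.316), over 1.5 times smaller.

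PDIA6 (P5, chr2:10783391-10812785, minus strand), an isomerase that also acts on the IRE1 and PERK sensors, was called in no comparison. Its MCF10A values were 7468, 8161 and 7639 with siNT, 6085, 6940 and 7152 with miR-28, and 7998, 6690 and 7326 with miR-708. The miR-28 libraries were below siNT by a small margin and the miR-708 libraries overlapped with it. Replicates 1, 2 and 3 of RPE-1 had PDIA6 values of 19537, 22229 and 20990 with siNT, 16863, 25659 and 20464 with miR-28, and 20417, 20681 and 19014 with miR-708. Here the groups overlapped, and miR-28 replicates 1 and 2 were the lowest and highest of all 9 libraries. The 4 log2 fold changes of PDIA6 were between -0.21 and -0.01, with limma adjusted p from 0.164 to 0.945, and in RPE-1 their 95% intervals were -0.33 to 0.30 with miR-28 and -0.37 to 0.25 with miR-708. Without miR-28 replicate 1 the miR-28 value of PDIA6 changed sign, to 0.13 (limma adjusted p = 0.396).

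CALR (calreticulin, chr19:12938609-12944489, plus strand), the soluble lectin chaperone and calcium buffer, was called lower in RPE-1 and not in MCF10A. Replicates 7, 8 and 9 of MCF10A had CALR values of 13439, 16129 and 13423 with siNT, 11615, 13003 and 14250 with miR-28, and 16438, 15365 and 15566 with miR-708. All groups overlapped with siNT, and the miR-708 mean was at 110% of it. The log2 fold changes were -0.14 (SE 0.12, limma adjusted p = 0.389) and 0.14 (SE 0.12, limma adjusted p = 0.363). For CALR in RPE-1 the values were 55602, 62799 and 59989 with siNT, 29461, 52311 and 41517 with miR-28, and 35926, 40647 and 34728 with miR-708. All mimic libraries were below siNT. CALR fell by 0.57 with miR-28 (SE 0.19, limma adjusted p = 0.0276) and by 0.68 with miR-708 (SE 0.19, limma adjusted p = 0.00841). The miR-28 call was lost when any library compared other than miR-28 replicate 2 was left out (limma adjusted p 0.0516–0.0823; 0.00352–0.0823 over its 14 alternatives), and without miR-28 replicate 1 the change was -0.35, over 1.5 times smaller.

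CANX (calnexin, chr5:179698967-179731641, plus strand), the membrane-bound lectin chaperone and the member with a seed heptamer, was called in 1 comparison. Its MCF10A values were 55410, 54560 and 51520 with siNT, 44612, 48086 and 47426 with miR-28, and 51339, 42285 and 42355 with miR-708. All mimic libraries were below siNT, the miR-708 replicate 7 library by a narrow margin. The log2 fold changes were -0.20 (SE 0.14, limma adjusted p = 0.299) and -0.25 (SE 0.14, limma adjusted p = 0.176). The RPE-1 values of CANX were 41680, 42897 and 45768 with siNT, 35474, 38995 and 36031 with miR-28, and 33143, 30337 and 31644 with miR-708. The groups were stepped, with siNT highest and miR-708 lowest and no overlap. CANX fell by 0.45 with miR-708 (SE 0.10, limma adjusted p = 0.00303), and its value with miR-28 was -0.24 (SE 0.10, limma adjusted p = 0.0812).

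DNAJB9 (ERdj4, chr7:108569874-108574850, plus strand), the J-domain co-chaperone that brings HSPA5 to IRE1, lay above siNT by the mean in all 4 comparisons. The MCF10A values of DNAJB9 were 582, 553 and 698 with siNT, 595, 773 and 799 with miR-28, and 693, 827 and 893 with miR-708. Replicate 7 of either mimic lay within the siNT range. The log2 fold changes were 0.24 (SE 0.15, limma adjusted p = 0.273) and 0.40 (SE 0.15, limma adjusted p = 0.0620). With the replicate number as a block the second passed the threshold (limma adjusted p = 0.0156; 0.0156–0.199 over its 14 alternatives). Replicates 1, 2 and 3 of RPE-1 had DNAJB9 values of 962, 1167 and 1051 with siNT, 1387, 1687 and 1272 with miR-28, and 1159, 1325 and 1120 with miR-708. The miR-28 libraries were all above siNT, while the miR-708 libraries overlapped with it. DNAJB9 rose by 0.44 with miR-28 (SE 0.12, limma adjusted p = 0.0124), a call that was lost without siNT replicate 1 (limma adjusted p = 0.0547; 0.00298–0.0547 over its 14 alternatives). With miR-708 its value was 0.18 (SE 0.12, limma adjusted p = 0.219).

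HERPUD1 (Herp, chr16:56932142-56944864, plus strand), a membrane protein that assembles the ER-associated degradation complex, rose with a single mimic in a single line. Replicates 7, 8 and 9 of MCF10A had HERPUD1 values of 1385, 1001 and 1579 with siNT, 1000, 1362 and 1484 with miR-28, and 1138, 1205 and 1252 with miR-708. These groups overlapped throughout, with log2 fold changes of -0.04 (SE 0.18, limma adjusted p = 0.898) and -0.12 (SE 0.18, limma adjusted p = 0.644). For HERPUD1 in RPE-1 the values were 2328, 2417 and 1928 with siNT, 3769, 4047 and 3393 with miR-28, and 2093, 2171 and 1806 with miR-708. The miR-28 libraries stood well above all others, and the miR-708 libraries overlapped with siNT. HERPUD1 rose by 0.75 with miR-28 (SE 0.11, limma adjusted p = 0.000405), to 168% of siNT, and was called under all 14 alternatives, the one without miR-28 replicate 1 included (0.74, limma adjusted p = 0.000837). With miR-708 the log2 fold change was -0.13 (SE 0.11, limma adjusted p = 0.320).

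XBP1 (chr22:28794560-28800569, minus strand) was the member that was called with either mimic in either line. For XBP1 in MCF10A the values were 3032, 2272 and 3419 with siNT, 1211, 1552 and 1570 with miR-28, and 1737, 1944 and 1859 with miR-708. All mimic libraries were below the lowest siNT library. XBP1 fell by 1.0 on the log2 scale with miR-28 (SE 0.15, limma adjusted p = 0.00140), to 49.7% of siNT, and by 0.64 with miR-708 (SE 0.15, limma adjusted p = 0.00780), to 63.5%. The RPE-1 values of XBP1 were 3766, 3972 and 3434 with siNT, 2550, 3346 and 2667 with miR-28, and 2421, 2257 and 2604 with miR-708. The separation from siNT was narrow for miR-28 replicate 2 and wide for the others. XBP1 fell by 0.39 with miR-28 (SE 0.11, limma adjusted p = 0.0153) and by 0.62 with miR-708 (SE 0.11, limma adjusted p = 0.000734). The RPE-1 call with miR-28 was lost without miR-28 replicate 3 or siNT replicate 2 (limma adjusted p = 0.0559 and 0.0604; 0.00193–0.0604 over its 14 alternatives), and without miR-28 replicate 1 it was -0.32 (limma adjusted p = 0.0467). Values per gene do not separate the spliced from the unspliced XBP1 transcript.

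**Figure D3:**
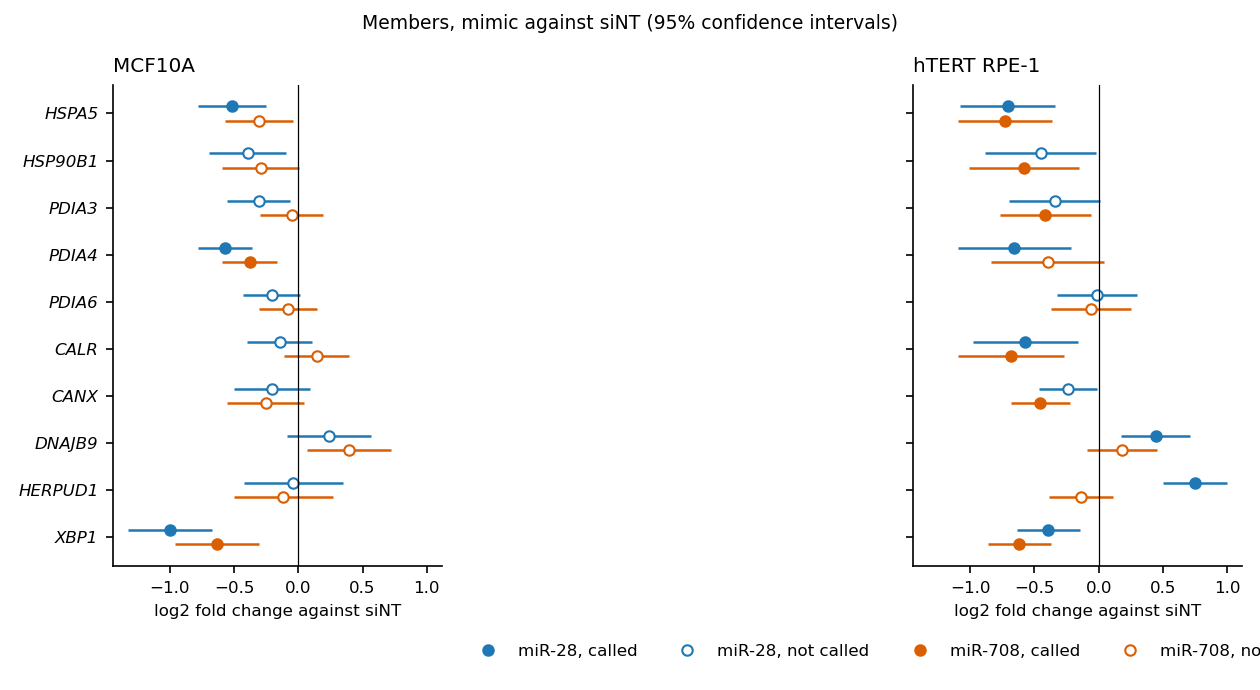
Log2 fold change of each member against siNT with miR-28 (blue) and miR-708 (orange), in MCF10A (left) and RPE-1 (right). Bars are 95% confidence intervals and filled points passed the adjusted threshold. Most points lie left of 0, and HERPUD1 with miR-28 in RPE-1, at 0.75, lies farthest to the right.

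Counted over the members, all 10 of which passed the filter on low values, 3 were called with miR-28 in MCF10A, all lower (HSPA5, PDIA4 and XBP1), where 22.7% of all genes were called, 12.0% lower and 10.7% higher. With miR-708 in MCF10A, 2 were called, both lower (PDIA4 and XBP1), against 32.8% of all genes called, 17.3% lower and 15.5% higher. In RPE-1 with miR-28, 6 members were called, 4 lower and 2 higher, where 46.8% of all genes were called, 23.5% lower and 23.3% higher. With miR-708 in RPE-1, 6 members were called lower and 0 higher, where 62.1% of all genes were called, 31.2% lower and 30.9% higher. The shares of members called were thus 30.0%, 20.0%, 60.0% and 60.0%, above the share of all genes with miR-28 and below it with miR-708 in both lines. The comparisons within a line share their siNT libraries. The median log2 fold change of the members was -0.26 and -0.19 in MCF10A and -0.37 and -0.43 in RPE-1, in the order miR-28 and miR-708, beside 0.0056, -0.0047, 0.0061 and 0.0021 for all genes tested.

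More members were wholly below than wholly above siNT in each comparison. In MCF10A, 7 members with miR-28 had all mimic libraries below all siNT libraries and 0 had all above, where 22.1% and 19.7% of all genes did (41.8% without overlap in either direction). With miR-708 the counts were 5 and 0, where 23.9% and 22.6% of all genes did (46.6% in either direction). In RPE-1, 5 members were wholly lower and 2 wholly higher with miR-28, beside 27.5% and 26.9% of all genes (54.4% in either direction). With miR-708, 7 were wholly lower and 0 wholly higher, beside 34.9% and 34.3% of all genes (69.2% in either direction). The 7 chaperones and isomerases from HSPA5 to CANX together held 0.575% ± 0.031 (SD, n = 3) of the summed values without ribosomal RNA genes in siNT-treated MCF10A, 0.505% ± 0.033 with miR-28 and 0.546% ± 0.027 with miR-708. In RPE-1 these shares were 0.907% ± 0.041, 0.738% ± 0.153 and 0.768% ± 0.025. The wide spread of the second RPE-1 group follows its libraries: replicate 2 was the highest of the 3 for all 10 members and replicate 1, the library with the high ribosomal RNA share, was the lowest for 8. The highest library of that group exceeded the lowest 1.57-fold in the median member, against 1.14 to 1.23-fold in the other 5 groups. In MCF10A, miR-28 replicate 7 was the lowest of its group for all 10 members. It had the fewest reads on genes (19.4 M). HSPA5, PDIA4 and XBP1 were still called with miR-28 in MCF10A when it was left out.

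The scale of the values bears on these counts. The deposited scaling sets the median gene near 0, and scaling each library to the same total instead moved the median of all genes up to 0.12 and 0.14 in MCF10A and 0.09 and 0.32 in RPE-1. These totals include the ribosomal RNA genes, which held 16.7% of the RPE-1 miR-28 replicate 1 library. The part of that share in the changes of calls was not tested. Among called genes the share that was higher went from 47.1% to 66.1%, 47.3% to 67.6%, 49.9% to 59.4% and 49.7% to 71.8%. On that scale the median of the members remained below 0 in the 4 comparisons (-0.15, -0.04, -0.28 and -0.12). With miR-708 in RPE-1, however, only XBP1 was still called lower, DNAJB9 was called higher (0.50, limma adjusted p = 0.00511; 0.00511–0.513 over its 14 alternatives), and HSPA5, HSP90B1, PDIA3, CALR and CANX were not called (limma adjusted p 0.0686, 0.291, 0.647, 0.140 and 0.324). With miR-28 in RPE-1, CALR and XBP1 were not called (limma adjusted p 0.0730 and 0.0567), and in MCF10A with miR-708 PDIA4 was not (0.0708), while DNAJB9 was called higher (0.54, limma adjusted p = 0.0225). No called member changed direction under any alternative.

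The mimics were compared directly at the same dose and time, as 1 pair in each line. They differ in sequence outside the shared seed. In MCF10A no member was called between miR-708 and miR-28 by limma, where 1.55% of all genes were called, 1.28% higher and 0.265% lower with miR-708. Of the members, 3 (PDIA3, CALR and XBP1) had an unadjusted p under 0.05, and the count was 0 under every alternative run. The largest difference was that of XBP1, 0.36 higher with miR-708 (95% interval 0.03 to 0.69, limma adjusted p = 0.275), followed by CALR at 0.29 (0.04 to 0.54, limma adjusted p = 0.259) and PDIA3 at 0.26 (0.01 to 0.50, limma adjusted p = 0.302). For HSPA5 the interval was -0.05 to 0.48. In 5 members all miR-708 libraries were above all miR-28 libraries (10.4% of all genes), and in 0 all were below (9.62% of all genes; 20.0% in either direction).

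In RPE-1 the single member called between the mimics was HERPUD1, where 21.2% of all genes were called, 9.88% higher and 11.4% lower with miR-708. Its 3393 to 4047 with miR-28 did not overlap with its 1806 to 2171 with miR-708. HERPUD1 was 0.89 lower on the log2 scale with miR-708 (log2 difference -0.89, SE 0.11, 95% interval -1.13 to -0.64, limma adjusted p = 0.00102) and was called under all 14 alternatives. For HSPA5 the difference was -0.02 with an interval of -0.39 to 0.35, for CALR -0.11 (-0.52 to 0.30), for CANX -0.22 (-0.44 to 0.01) and for XBP1 -0.23 (-0.47 to 0.02). These intervals leave room for differences as large as many of the changes against siNT. PDIA4 was called without miR-28 replicate 2 (0.50, limma adjusted p = 0.0306; 0.0306–0.986 over its 14 alternatives). HERPUD1 and CANX had all miR-708 libraries below all miR-28 libraries (20.2% of all genes) and 0 members had all above (18.5%; 38.7% of all genes in either direction).

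The responses of the lines were compared by subtracting the MCF10A change from the RPE-1 change. With miR-28, 2 members differed, both higher, where 23.4% of the 13339 genes tested in both lines were called, 12.1% higher and 11.3% lower. HERPUD1 was 0.79 higher in RPE-1 (SE 0.21, 95% interval 0.35 to 1.23, limma adjusted p = 0.0105), and it was called under all 20 alternatives. XBP1 differed by 0.61 (SE 0.19, 95% interval 0.22 to 0.997, limma adjusted p = 0.0233), its decrease being smaller in RPE-1. That call was lost without MCF10A miR-28 replicate 7 (limma adjusted p = 0.0680), MCF10A siNT replicate 7 or 9 (0.0630 and 0.0864) or RPE-1 miR-28 replicate 2 (0.0604; 0.00422–0.0864 over its 20 alternatives). CALR was not called with miR-28 (-0.43, limma adjusted p = 0.170) and passed without RPE-1 miR-28 replicate 2 (limma adjusted p = 0.0328; 0.0328–0.444 over its 20 alternatives). With miR-708, 1 member differed, where 39.8% of all genes were called, 20.2% higher and 19.6% lower. CALR was 0.83 lower in RPE-1 (log2 difference -0.83, SE 0.22, 95% interval -1.29 to -0.37, limma adjusted p = 0.00598) and was called under all 20 alternatives. For HSPA5 the line differences were -0.19 (-0.62 to 0.24) and -0.42 (-0.85 to 0.01), and for PDIA4 -0.09 (-0.56 to 0.39) and -0.02 (-0.49 to 0.45).

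**Figure D4:**
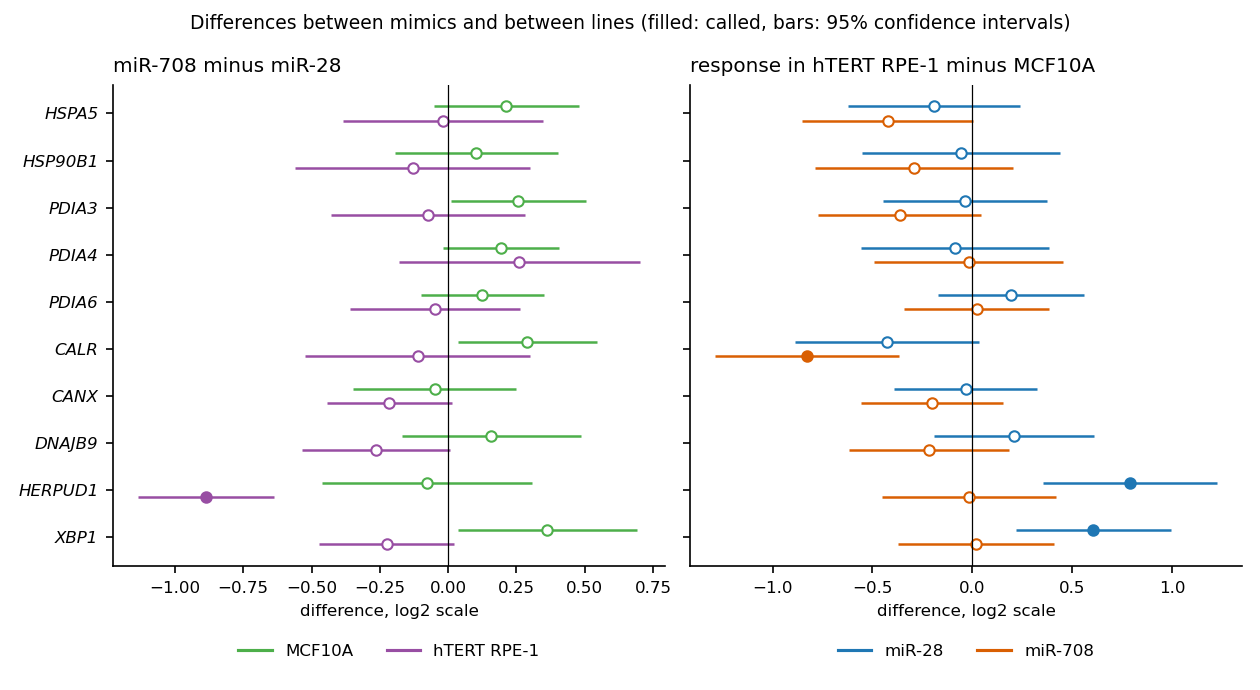
Left, log2 difference between miR-708 and miR-28 for each member in MCF10A (green) and RPE-1 (purple). Right, log2 fold change against siNT in RPE-1 minus that in MCF10A for miR-28 (blue) and miR-708 (orange). Bars are 95% confidence intervals and filled points passed the adjusted threshold, which were HERPUD1 on the left (-0.89) and HERPUD1 (0.79), XBP1 (0.61) and CALR (-0.83) on the right.

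Around the members, 95 other genes of the secretory pathway and the unfolded protein response, listed by function in 8 groups, were examined, of which 93 passed the filter in both lines (PDIA2 and DERL3 did not). In MCF10A, 37 (39.8%) were called with miR-28, 31 lower and 6 higher, and 42 (45.2%) with miR-708, 32 lower and 10 higher. In RPE-1, 55 (59.1%) were called with miR-28, 41 lower and 14 higher, and 69 (74.2%) with miR-708, 48 lower and 21 higher. All RPE-1 values with miR-28 in this part include replicate 1, the library with the high ribosomal RNA share. The shares of all genes called were those given above (22.7%, 32.8%, 46.8% and 62.1%). Their median log2 fold changes were -0.19, -0.11, -0.22 and -0.29. On the library size scale the calls were 24 lower and 11 higher, 23 and 17, 35 and 16, and 33 and 31, so the excess of lower calls nearly disappeared with miR-708 in RPE-1, and single genes move up by about the shifts of the median given above. On that scale the medians of the oxidoreductases (MCF10A, miR-708), the glycan enzymes (MCF10A, miR-28), the degradation genes (MCF10A, miR-28, and RPE-1, miR-708) and the translocon genes (RPE-1, miR-708) turned from below to above 0.

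The other ER chaperones and co-chaperones lay lowest. Of 13, 7 and 6 were called lower in MCF10A and 10 and 9 in RPE-1, with 1 called higher with miR-708 in RPE-1, and the counts of lower calls on the library size scale were 6, 6, 10 and 9. HYOU1, the large nucleotide exchange factor of HSPA5, fell in all 4 comparisons, with log2 fold changes of -0.69 and -1.0 in MCF10A (limma adjusted p = 0.00362 and 0.000214) and -1.23 and -1.90 in RPE-1 (9.0e-06 and 2.7e-07), for miR-28 and miR-708 in that order. MANF, a secreted ER stress protein that binds HSPA5, also fell in all 4, at -1.01 and -0.78 in MCF10A (limma adjusted p = 0.00280 and 0.00582) and -1.87 and -1.93 in RPE-1 (1.67e-06 and 4.86e-07). SERPINH1, the collagen chaperone, was called lower in the same comparisons, at -0.93 and -1.11 in MCF10A (limma adjusted p = 0.000322 and 3.8e-05) and -0.65 and -1.81 in RPE-1 (0.000331 and 2.22e-07). These decreases are larger than that of HSPA5 in the same libraries except for SERPINH1 with miR-28 in RPE-1. The differences between genes were not tested. By the search above, HYOU1 and MANF have a seed heptamer in the 3′ UTR and SERPINH1 a hexamer only, and HSPA5 has neither. Of the 13 genes, 4 have a heptamer, 2 a hexamer only and 7 neither match. The part of seed matches in the decreases of this and the following groups was not tested. CRELD2, an ER stress-induced isomerase-like protein, was called lower in 3 comparisons and had -0.35 with miR-708 in MCF10A. DNAJC3 was called in RPE-1 only (-0.65 and -0.96), SDF2L1 only with miR-28 there (-0.76), and DNAJB11, a co-chaperone of HSPA5, in no comparison (-0.29 to -0.07). DNAJC3 has a seed heptamer, and CRELD2, SDF2L1 and DNAJB11 have neither match.

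Among 13 other ER oxidoreductases, 5 and 2 were called lower and 1 and 1 higher in MCF10A, and 4 and 4 lower and 3 and 5 higher in RPE-1. TXNDC5, a thioredoxin-domain isomerase, fell with either mimic in either line, at -1.22 and -1.22 in MCF10A (limma adjusted p = 0.000262 and 8.32e-05) and -1.85 and -2.33 in RPE-1 (1.71e-06 and 1.75e-07). ERP44, which retains proteins in the early secretory pathway, was called lower in all 4 comparisons, at -0.40 to -0.53. ERO1A, the oxidase that recharges the isomerases, fell with miR-28, at -0.70 in MCF10A and -1.06 in RPE-1, and was at -0.25 and -0.42 with miR-708. ERP44 and ERO1A have a seed heptamer and TXNDC5 a hexamer only. Of the 13 genes, 2 have a heptamer, 3 a hexamer only and 8 neither match. PDIA5 was called lower with miR-708 in RPE-1 (-0.44). P4HB, the founding isomerase, was called lower in RPE-1 (-0.42 and -0.57) and not in MCF10A (-0.26 and -0.18). P4HB has a hexamer only and PDIA5 neither match. In the glycan trimming and calnexin cycle group of 7, which works with CANX and CALR, 2 and 4 were lower in MCF10A and 3 and 6 in RPE-1, with 1 higher in each comparison. GANAB, the glucosidase that trims glycans for the lectins, was called lower with miR-708 in RPE-1 (-0.23). UGGT1, the folding sensor that returns glycoproteins to CANX and CALR, fell in RPE-1 (-0.58 and -1.01) and was at -0.09 and -0.33 in MCF10A. GANAB has a hexamer only and UGGT1 neither match. A heptamer was found in 0 of these 7 genes, a hexamer only in 2 and neither match in 5.

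Of the 6 genes of the stress sensors and their proteases, 3 and 2 were lower in MCF10A and 4 and 4 in RPE-1, and 1 was higher. ATF6 was called lower in 3 comparisons (-0.29 in MCF10A with miR-28, -0.45 and -0.57 in RPE-1). It has a seed heptamer. Of these 6 genes, 2 have a heptamer, 2 a hexamer only and 2 neither match. ERN1, which encodes the IRE1 nuclease that splices XBP1, was called higher with miR-28 in RPE-1 (0.73, limma adjusted p = 0.00976), the comparison in which HERPUD1 and DNAJB9 rose, and was between -0.11 and 0.14 in the others. MBTPS1, the protease that cleaves ATF6, was called lower in RPE-1 (-0.21 and -0.53). EIF2AK3, which encodes PERK, was called in no comparison (-0.35 to -0.15). MBTPS1 has a hexamer only, and ERN1 and EIF2AK3 have neither match. Of 18 genes of ER-associated degradation, the process in which HERPUD1 acts, 2 and 1 were lower and 2 and 2 higher in MCF10A, and 5 and 9 lower and 2 and 4 higher in RPE-1. On the library size scale 1 and 1 were lower and 4 and 8 higher in MCF10A, and 3 and 4 lower and 3 and 8 higher in RPE-1. EDEM1, which extracts misfolded glycoproteins, was called lower in all 4 comparisons (-1.13 and -0.94 in MCF10A, -1.48 and -1.36 in RPE-1), and SYVN1, the ligase that HERPUD1 joins, fell in RPE-1 (-0.49 and -0.68). EDEM1 has a seed heptamer, as has DERL1, SYVN1 has a hexamer only, and SEL1L and OS9 have neither match. Of the 18 degradation genes, 3 have a heptamer, 5 a hexamer only and 10 neither match. SEL1L, the partner of SYVN1, was called lower with miR-708 in RPE-1 (-0.71), OS9, a lectin of the same complex, was called higher with miR-708 in MCF10A (0.62) and miR-28 in RPE-1 (0.44), and DERL1 was called in no comparison (-0.10 to 0.12). The translocon and signal peptidase group of 18 had 8 and 9 lower and 1 and 1 higher calls in MCF10A, and 9 and 9 lower and 1 and 3 higher in RPE-1. SEC61B of the translocation channel was called lower in all 4 comparisons (-0.74 to -0.37), its partner SEC61A1 in RPE-1 (-0.34 and -0.56), and SSR1 with miR-708 in MCF10A (-0.28). SSR1 has a seed heptamer, SEC61A1 a hexamer only and SEC61B neither match. A heptamer was found in 5 of these 18 genes, a hexamer only in 3 and neither match in 10. Of 12 COPII coat genes, 1 and 5 were lower and 1 and 2 higher in MCF10A, and 6 and 7 lower and 0 and 2 higher in RPE-1. SEC23B was called higher with miR-708 in RPE-1 (0.46) and SEC24D in no comparison (-0.22 to 0.05). Neither gene has a seed match. A heptamer was found in 2 of these 12 genes, a hexamer only in 0 and neither match in 10.

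Of the 6 genes listed as outputs of the PERK branch, whose activity was not measured, 6 were called higher in RPE-1 with miR-28 and 5 with miR-708. These counts were the same on the library size scale. In MCF10A 3 were called lower with miR-28 and 3 lower and 3 higher with miR-708, and with miR-28 another 2 were called higher on the library size scale. ATF4, the transcription factor of this branch, fell in MCF10A, at -1.05 and -0.89 (limma adjusted p = 0.000322 and 0.000271), and rose by 0.45 and 0.35 in RPE-1 (0.0113 and 0.0259). The difference between the lines was 1.5 with miR-28 (limma adjusted p = 3.26e-06) and 1.24 with miR-708 (7.52e-06). DDIT3, the CHOP transcription factor, rose by 2.18 and 3.09 in RPE-1 and by 1.47 with miR-708 in MCF10A, and was at 0.32 with miR-28 there. TRIB3, a target of DDIT3 and ATF4, fell in MCF10A (-1.86 and -1.94) and rose in RPE-1 (0.51 and 0.87). PPP1R15A, the phosphatase subunit that reverses PERK signalling, rose in 3 comparisons (0.98 in MCF10A with miR-708, 0.38 and 0.97 in RPE-1) and was at 0.43 in the other. All 6 genes listed for this branch have neither seed match. Among 12 chaperones of the cytosol and mitochondria, 1 and 2 were lower and 0 higher in MCF10A, and 2 and 2 lower and 3 and 6 higher in RPE-1. On the library size scale 1 and 1 were lower and 0 and 3 higher in MCF10A, and 1 and 0 lower and 3 and 8 higher in RPE-1. A seed heptamer was found in 1 of these 12 genes, a hexamer only in 1 and neither match in 10. HSP90AA1, the cytosolic paralog of HSP90B1, was called in no comparison (-0.34 to 0.29), HSPA8 was called lower only with miR-708 in MCF10A (-0.55), and mitochondrial HSPD1 was called lower in 3 comparisons (-0.51 to -0.71) and was at -0.31 in the other.

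**Figure D5:**
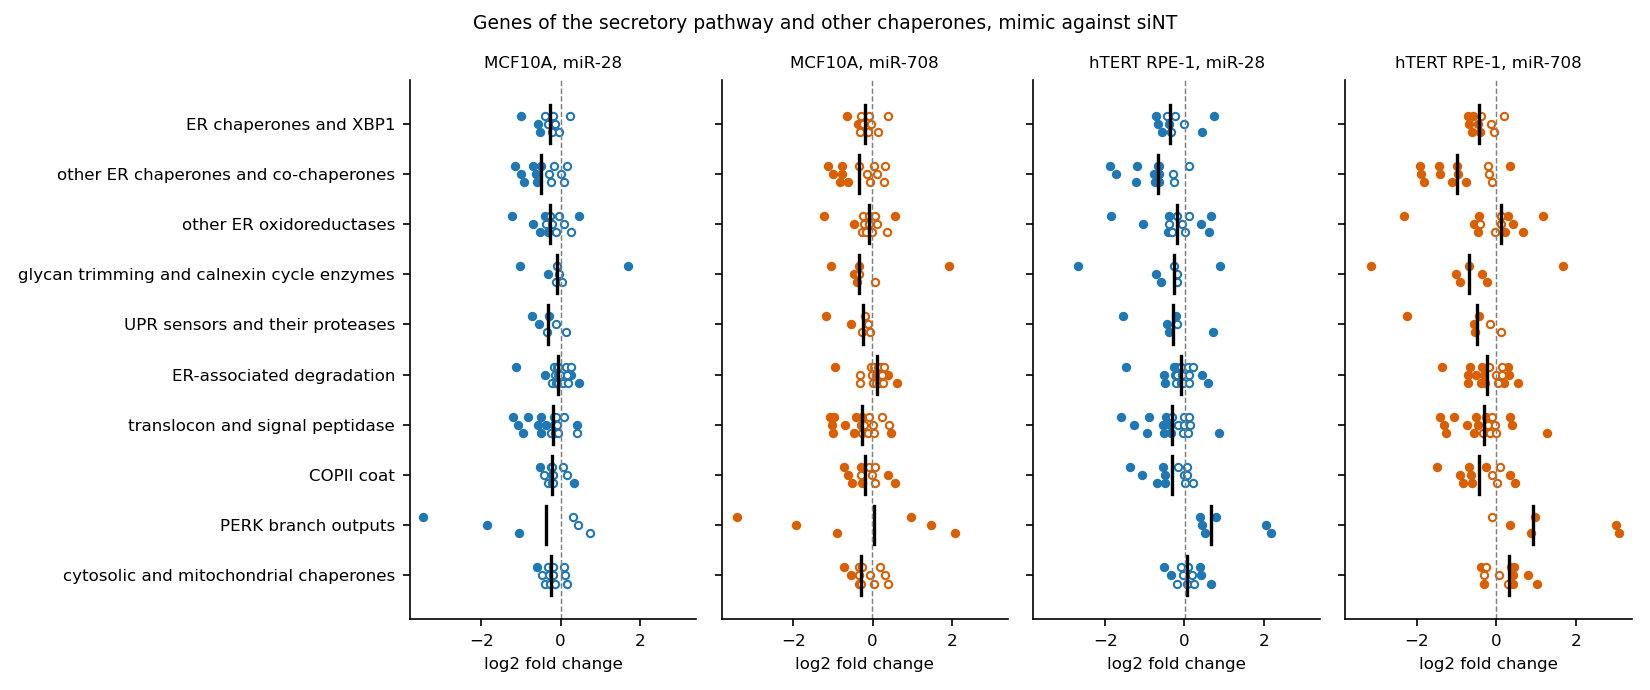
Log2 fold change against siNT of the members (top) and of the other groups of genes, in each of the 4 comparisons. Each point is a gene, filled where it passed the adjusted threshold, black bars are group medians and the dashed line is the median of all genes tested. The other ER chaperones have the lowest medians in RPE-1 (-0.68 and -0.98), and there the genes listed as PERK branch outputs have the highest (0.66 and 0.92).

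To place the members in the whole response, the 10233 genes tested in both lines with a mean of at least 100 in each were ranked by the root mean square difference of their 4 log2 fold changes from those of HSPA5. The nearest genes were TXNDC15 (0.049), PSMB6 (0.053), PRELID2 (0.057), C16orf70 (0.059) and WDR61 (0.062), all outside the member list. HSP90B1 was at rank 147 (0.16) and PDIA4 at rank 203 (0.17). PDIA3, CALR, CANX and XBP1 were between rank 1021 and 1459, PDIA6 was at rank 3465, and HERPUD1 and DNAJB9 were at ranks 6842 and 7385. HSP90B1 and PDIA4 were the members most like HSPA5 by this measure and HERPUD1 and DNAJB9 the least, over comparisons that share siNT libraries within a line.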

How the data were processed

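Per the labels and the study's methods, the authors aligned paired-end reads to hg38 with HISAT2 2.1.0 and quantified RefSeq transcripts in Partek Flow. The deposited expression signal of a gene is its estimated reads after division by a size factor of the median-of-ratios kind. Whole reads could not be recovered: 82.8–88.2% of low values were whole multiples of their library's step, within 0.05 of a step. Depth was taken from that step, and floors cover counting error only, as the reads carry no molecular identifiers. The intervals given for log2 differences were computed from the limma standard errors, which measure the spread between replicate libraries. The authors' own comparisons (DESeq2 fold changes and p-values, pooled means) were not used.

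Values were transformed as log2(value + 1), which slightly understates changes of low genes, and a gene was tested in a line when 3 or more of its 9 libraries reached 10 (14726 genes in MCF10A, 14527 in RPE-1). limma 3.58.1 (R 4.3.3) with a trended prior was fitted to each line, and genes were called at a Benjamini-Hochberg adjusted p below 0.05 over all genes tested. Differences between lines used Welch–Satterthwaite degrees of freedom over 13339 genes. The code was tested on simulated data. Same-numbered libraries deviated together in MCF10A for siNT with miR-28 (correlations 0.263, 0.176 and 0.111 over genes) and with miR-708 (0.302, 0.115 and 0.155), and in RPE-1 between the mimics (0.279, 0.198 and 0.134). The numbers are read as pairing these libraries. In the other pairs of groups the same-numbered correlations were positive too (0.0214 to 0.177), and pairing was not settled there. The main fit does not use the pairing. The replicate block, other scalings, filters, pseudocounts, prior and subsets, and leaving out each library, were tried as alternatives.

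Members and gene lists were chosen with earlier results of these data known. The genes named outside the members are a selection by name from each list, and the 5 genes nearest to HSPA5. Both mature microRNA sequences were read from the study's supplementary list, and 3′ UTRs from GENCODE. Python 3.11.15, pandas 2.3.3 and matplotlib 3.10.9 complete the software.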

Additional observations from a re-analysis of the deposited data

Results flagged for a closer look

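The response of 3 members differed between the lines by the test of the difference itself. HERPUD1 responded to miR-28 0.789 higher on the log2 scale in RPE-1 than in MCF10A (Welch adjusted p = 0.0105), with all 3 RPE-1 libraries above siNT and overlap with siNT in MCF10A. XBP1 responded to miR-28 0.607 higher in RPE-1 (Welch adjusted p = 0.0233), with its mimic libraries below siNT in both lines. CALR responded to miR-708 lower in RPE-1 (difference -0.827, Welch adjusted p = 0.00598), with all 3 libraries below siNT there and overlap in MCF10A. The lines were cultured and scaled as separate sets, so a line cannot be told apart from its set.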

How the results depend on the processing

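Single values of members that were called kept their direction under all alternatives run. Outside the settings that leave out a library, 157 stayed called and 11 did not; among those that leave out a library, 119 stayed called and 25 did not. Counts of members called moved by over 1.5 times under library size scaling (2 with miR-708 against siNT in RPE-1), without the trend (1 for the line difference with miR-28) and with only the groups compared (2 for the line difference with miR-708). Counts over all genes moved for miR-708 against miR-28: from 228 to 643 with the replicate block (share higher from 82.9% to 66.7%) and 150 without the trend in MCF10A, and from 3084 to 4650 under library size scaling in RPE-1, where the share higher went from 46.5% to 84.8%. For the line difference with miR-708 that share went from 50.8% to 68.4%. Under upper quartile scaling it went from 47.1% to 58.5% for miR-28 in MCF10A.

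Leaving out 1 library in turn, members called ranged over 1–5 (MCF10A, miR-708 against siNT; highest without miR-708 replicate 7, where HSPA5, CANX and DNAJB9 passed at adjusted p 0.0219, 0.0445 and 0.0284, and lowest without replicate 8), 3–8 (RPE-1, miR-28 against siNT; lowest without siNT replicate 2, highest without miR-28 replicate 2), 1–2 (RPE-1, miR-708 against miR-28) and 1–2 (line difference with miR-28). Pathway genes called in MCF10A with miR-28 ranged over 23–31. All genes called ranged over 1949–3068 and 3174–5483 in MCF10A against siNT, and over 112–368 and 1512–4084 between the mimics in MCF10A and RPE-1.

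Where the numbers are read as pairing the libraries, the replicate block added the HSP90B1 and DNAJB9 calls in MCF10A and changed no other call of a member. Where pairing was not settled, the block added PDIA3 with miR-28 (limma adjusted p = 0.0456, its alternatives 0.00568–0.316) and PDIA4 with miR-708 (0.0371, its alternatives 0.00427–0.765) in RPE-1. Same-numbered correlations with siNT there were 0.0214, 0.0430 and 0.0230 for miR-28 and 0.0420, 0.152 and 0.0731 for miR-708, and between the mimics in MCF10A 0.121, 0.0250 and 0.177. DNAJB9 in MCF10A with miR-708 also passed without siNT replicate 9 (0.0493). With only the 2 groups compared, PDIA4 was also called (0.00427) and HSPA5 differed between lines with miR-708 (0.0432; 0.0432–0.377).

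Values that were not called changed sign as follows. Under library size scaling, HERPUD1 became 0.073 (MCF10A, miR-28), PDIA3 0.092, PDIA6 0.061 and HERPUD1 0.026 (MCF10A, miR-708), PDIA6 0.072 (RPE-1, miR-28), PDIA6 0.26 and HERPUD1 0.18 (RPE-1, miR-708). Between the mimics in RPE-1, HSPA5 became 0.21, HSP90B1 0.10, PDIA3 0.16, PDIA6 0.19, CALR 0.12, CANX 0.017 and XBP1 0.0077. For the line difference with miR-708, PDIA4 and HERPUD1 became 0.16. Under upper quartile scaling, HERPUD1 became 0.031 (MCF10A, miR-28), PDIA6 0.0041 (RPE-1, miR-28), and PDIA6 -0.0060 and XBP1 -0.0087 (line difference, miR-708). The cause was not tested.

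With 1 library left out, sign changes occurred within these ranges. In MCF10A, HERPUD1 ranged over -0.23 to 0.13 with miR-28 and -0.30 to 0.024 with miR-708, and between mimics HSP90B1 over -0.0064 to 0.19 and HERPUD1 over -0.25 to 0.037. In RPE-1, PDIA6 ranged over -0.17 to 0.13 with miR-28, and between mimics HSPA5 over -0.20 to 0.17, HSP90B1 -0.36 to 0.078, PDIA3 -0.23 to 0.12, PDIA6 -0.19 to 0.11 and CALR -0.33 to 0.082. Line differences with miR-28 ranged over -0.27 to 0.17 (HSP90B1), -0.23 to 0.13 (PDIA3), -0.33 to 0.17 (PDIA4) and -0.075 to 0.0044 (CANX), and with miR-708 over -0.086 to 0.058 (PDIA4), -0.043 to 0.086 (PDIA6), -0.16 to 0.17 (HERPUD1) and -0.11 to 0.19 (XBP1). The lowest value of a member is far above that of 3 reads.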

Other observations

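Outside the genes named by rule, several pathway genes stood out after their values were seen. MLEC, an ER lectin that binds newly made glycans, fell in all 4 comparisons, at -1.03 and -1.04 in MCF10A (limma adjusted p = 0.000818 and 0.000323) and -2.69 and -3.15 in RPE-1 (4.86e-08 and 1.2e-08), in the order miR-28 and miR-708. ATF6B, the paralog of ATF6, was called lower likewise, at -0.71 and -1.19 in MCF10A (limma adjusted p = 0.00814 and 0.000273) and -1.56 and -2.25 in RPE-1 (5.14e-06 and 2.33e-07). SPCS3, a signal peptidase subunit, was called lower with either mimic, at -1.2 and -1.08 in MCF10A and -1.61 and -1.43 in RPE-1. CLGN, a calnexin homolog known from the testis, was the group member called higher in each comparison, at 1.69, 1.92, 0.90 and 1.69. In the 3′ UTR, SPCS3 has a seed heptamer, MLEC and ATF6B a hexamer only and CLGN neither match. The part of these matches was not tested.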
